A study of Homo sapiens with 4 samples.

Results

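The genes described here are 10 members of the BCL2 family, which encode proteins that hold back or carry out apoptosis at the mitochondrion. They were chosen by symbol, each symbol had 1 row, and they make up 10 of the 78932 genes in the count table. By role they are 3 anti-apoptotic genes (BCL2, BCL2L1 and MCL1), 2 effectors (BAX and BAK1) and 5 BH3-only genes (BBC3, PMAIP1, BCL2L11, HRK and BMF). All 10 passed the filter on low counts.

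The RNA came from RPMI 8226 cells, an established line of human multiple myeloma (a cancer of plasma cells), taken 72 hours after the cells were transfected with an LNA ASO, an antisense oligonucleotide of locked nucleic acid that pairs with a chosen RNA. One group of 2 libraries received an LNA ASO against CELF2 at 5 nM, and the other group of 2 received a control LNA ASO, for which the labels state no dose. All 4 libraries come from the same line, and no untransfected cells are among them. Whether libraries of a group came from separate cultures is not stated in the labels, and p-values then reflect only how these libraries vary, which may be technical variation. The titles number the ASO within each group, and whether that number marks a replicate or a different oligonucleotide is not stated; here it is called a replicate, and the spread within a group could include a difference between oligonucleotides.

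Anti-apoptotic family members sit on the outer mitochondrial membrane and bind the effectors BAX and BAK, which otherwise open that membrane and release cytochrome c. BH3-only proteins share a short helix, the BH3 domain, that occupies the groove of the anti-apoptotic proteins or engages the effectors directly. Plasma cells and myeloma cells are known for a strong need of MCL1, and some myelomas depend on BCL2. CELF2, an RNA-binding protein, has been described in colon cancer cells as binding MCL1 mRNA and holding back its translation, a step that RNA counts do not measure.

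Total counts ranged from 23599190 to 29161298. The targeted gene CELF2 had 128 CPM in each control library and 56.6 and 48.8 CPM in the CELF2 ASO libraries, where CPM is the count scaled to a common library size after TMM normalization. That is 2.43-fold lower (edgeR quasi-likelihood test with Benjamini-Hochberg adjustment, adjusted p = 3.74e-05). The biological coefficient of variation over all genes was 13.7% between the CELF2 ASO libraries and 3.58% between the control libraries. All 9 plasma cell markers listed were detected, with summed levels of 3170 to 3860 CPM. The sum hides changes: by the same test 3 of the 9 were higher and 4 lower with the CELF2 ASO (adjusted p under 0.05). Over all genes tested, 27.6% were higher and 28.0% lower. SDC1 was 2.34-fold lower and CD38 2.43-fold higher. Markers of T and NK cells summed to 1.39 to 1.88 CPM over 5 genes and those of myeloid cells to 2.34 to 3.43 CPM over 5 genes, with LYZ, S100A8 and FCGR3A listed at 0 in every library. Of 5 stromal, epithelial and erythroid markers, EPCAM and KRT18 carried nearly all of the sum, 119 and 121 CPM in the control and 83.0 and 84.9 CPM in the CELF2 ASO libraries; their part in the results below was not tested.

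The 3 members with the largest rises were BH3-only genes, and the bases just upstream of their transcripts are shown for that reason. Whether these genes share regulation was not tested. Sequences are the 150 bases before the outermost GENCODE start, 5′ to 3′ on the gene's own strand, from RefSeq on GRCh38.p14. HRK lies at chr12:116881442-116881591 (minus strand), PMAIP1 at chr18:59899798-59899947 (plus strand) and BBC3 at chr19:47232767-47232916 (minus strand). Capitals mark the letters described after them.
HRK: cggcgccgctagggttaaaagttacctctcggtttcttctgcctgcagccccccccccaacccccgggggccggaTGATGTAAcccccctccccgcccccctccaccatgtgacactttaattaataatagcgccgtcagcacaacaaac
PMAIP1: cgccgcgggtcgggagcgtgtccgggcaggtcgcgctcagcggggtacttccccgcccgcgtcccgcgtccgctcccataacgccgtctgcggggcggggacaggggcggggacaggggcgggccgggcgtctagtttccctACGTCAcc
BBC3: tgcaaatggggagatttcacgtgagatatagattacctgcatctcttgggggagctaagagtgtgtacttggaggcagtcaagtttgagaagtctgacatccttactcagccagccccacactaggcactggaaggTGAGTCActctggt

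Both strands of the 250 bases before the RefSeq start were searched in 9 of the 10 genes, MCL1 having no entry, and in 35116 promoters of that length in all. The cAMP response element TGACGTCA was in none of the 9 and in 1.65% of all promoters, and the C/EBP-ATF element TGATGCAA was in none of the 9 and in 0.772% of all. Shorter or looser forms were then chosen after reading the sequences, so matches in these genes cannot be weighed against the shares of all promoters. TGATGNAA, which includes TGATGCAA, matched in HRK alone, beginning 75 bases before the start, and in 3.14% of all promoters. TGACGT, the first letters of TGACGTCA, matched in PMAIP1 alone, on the other strand as ACGTCA beginning 56 bases before the start, and in 7.1% of all. TGANTCA, the AP-1 pattern, matched in BBC3 alone as TGAGTCA, beginning 113 bases before the start, and in 6.57% of all. Distances are from the RefSeq start, which for PMAIP1 and BBC3 lies downstream of the GENCODE start that ends the printed stretch, so the marked letters stand nearer to the printed 3′ end there. Such matches describe letters and show no binding.

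The comparison asks how family transcripts differ when CELF2 is targeted. BCL2, MCL1, BBC3, PMAIP1 and HRK rose and BCL2L1 and BAK1 fell, while BAX, BCL2L11 and BMF did not pass the threshold (adjusted p under 0.05). Thus 7 of 10 were called, 5 higher and 2 lower. Over all 19511 genes tested 55.6% were called, 27.6% higher and 28.0% lower, so a count of 7 in 10 is near the background. Changes of at least 2-fold were called in 6 of the 10, against 25.7% of all genes. The 10 were chosen with earlier results of these data known, so this contrast only describes them. The median log2 fold change was 0.45 in the 10 and 0.04 over all genes, where the median size regardless of sign was 0.59. In bulk RNA, fewer cells of a kind and less RNA per cell cannot be told apart.

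**Figure D1:**
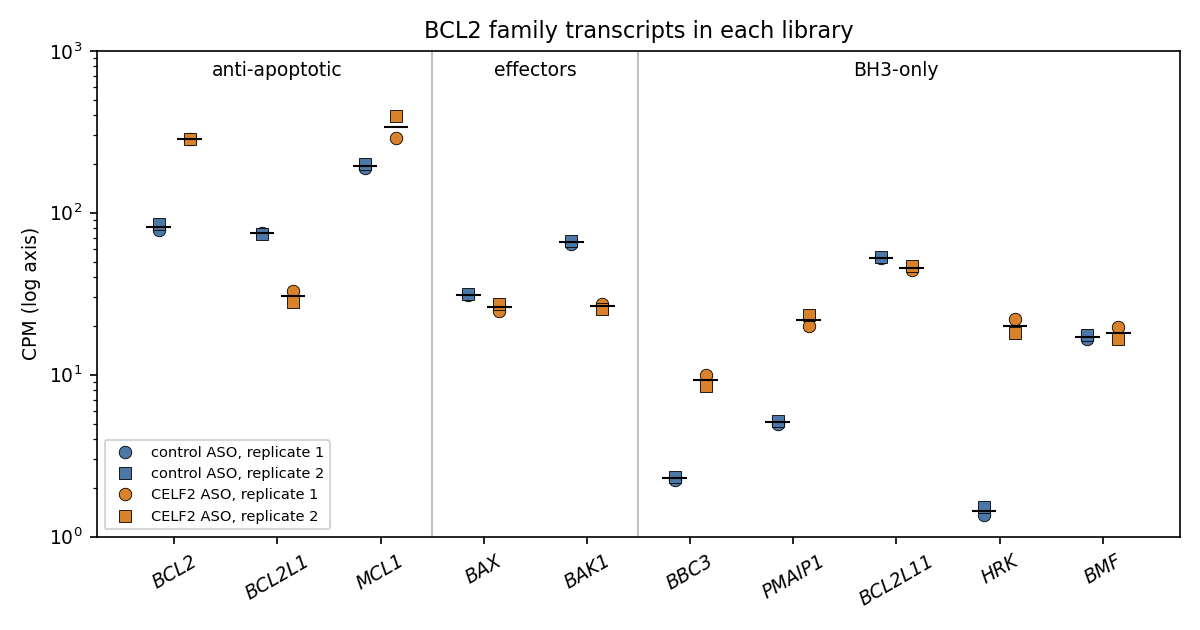
Level of each of the 10 genes in each library, in CPM on a log axis; blue points are control ASO and orange points CELF2 ASO libraries, circles replicate 1 and squares replicate 2, and black bars are group means. BMF is the single gene whose groups overlap, and HRK shows the widest gap, from 1.36 and 1.53 to 22.0 and 18.0 CPM.

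Among the anti-apoptotic genes, BCL2 and BCL2L1 moved in opposite directions. BCL2 (ENSG00000171791, GRCh38 chromosome 18, 63123346 to 63320128, minus strand) is the founding member and the target of venetoclax. It had 78.6 and 84.8 CPM in the control libraries and 285 and 284 CPM in the CELF2 ASO libraries. Both CELF2 ASO libraries were far above both controls and nearly equal to each other. The rise was 3.48-fold (log2 fold change 1.80, SE 0.08, adjusted p = 8.12e-06), and 1062 of the genes tested had a larger fitted rise.

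BCL2L1 (ENSG00000171552, chromosome 20, 31664452 to 31723989, minus strand) encodes BCL-XL and, by alternative splicing, the pro-apoptotic BCL-XS. It had 75.5 and 73.9 CPM in the control libraries and 33.1 and 28.1 CPM in the CELF2 ASO libraries, with no overlap between the groups. The fall was 2.44-fold (log2 fold change -1.29, SE 0.10, adjusted p = 4.96e-05). Counts per gene do not separate the 9 annotated transcripts, so the share of each splice form was not measured. The antisense gene ABALON covers 43.0% of its exon bases and had 3 to 6 counts in each library, against 671 to 2113 for BCL2L1. With no stated strand setting, how reads in the shared bases were counted is not known, which also limits the level of BCL2L1 per length.

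MCL1 (ENSG00000143384, chromosome 1, 150574551 to 150579738, minus strand) encodes a short-lived guardian protein. It had 189 and 199 CPM in the control libraries and 288 and 393 CPM in CELF2 ASO replicates 1 and 2. Both CELF2 ASO libraries were above both controls, but they lay further apart than for any other of the 10 genes, with a log2 ratio of replicate 2 to replicate 1 of 0.45, where the median size of that ratio over all genes was 0.17. The rise was 1.76-fold (log2 fold change 0.81, SE 0.14, adjusted p = 0.00227). Its log2 fold change was 0.55 without CELF2 ASO replicate 2 and 1.03 without CELF2 ASO replicate 1. Such fits take their spread from the control pair alone, so they do not test the gap between the CELF2 ASO libraries.

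Of the effectors, BAK1 fell and BAX did not pass. BAK1 (ENSG00000030110, chromosome 6, 33572547 to 33580293, minus strand), whose product resides on the mitochondrial membrane, had 64.4 and 66.8 CPM in the control libraries and 27.2 and 25.6 CPM in the CELF2 ASO libraries. The groups did not overlap, and the fall was 2.49-fold (log2 fold change -1.31, SE 0.08, adjusted p = 2.45e-05). BAX (ENSG00000087088, chromosome 19, 48954815 to 48961798, plus strand), whose product moves from the cytosol to mitochondria when activated, had 31.1 and 31.3 CPM in the control libraries and 24.8 and 27.5 CPM in the CELF2 ASO libraries. The CELF2 ASO libraries were lower in both cases, with a log2 fold change of -0.26 and a 95% interval of -0.48 to -0.03 before adjustment (adjusted p = 0.0535). That call depended on the setting, passing with RLE scaling (adjusted p = 0.0401) and with no filter (adjusted p = 0.0459). BAX had a log2 fold change of -0.18 without CELF2 ASO replicate 1 and -0.35 without replicate 2.

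The BH3-only genes split into 3 that rose at least 4-fold from low levels and 2 that did not pass. HRK (ENSG00000135116, chromosome 12, 116856144 to 116881441, minus strand) encodes Harakiri, a BH3-only protein known mostly from neurons that binds BCL2 and BCL-XL. It had 38 and 36 counts in the control libraries, or 1.36 and 1.53 CPM, and 610 and 431 counts in the CELF2 ASO libraries, or 22.0 and 18.0 CPM. The rise was 13.9-fold (log2 fold change 3.79, SE 0.18, adjusted p = 9.36e-06), and 111 of the genes tested had a larger fitted rise.

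PMAIP1 (ENSG00000141682, chromosome 18, 59899948 to 59904306, plus strand) encodes NOXA, which binds MCL1 and promotes its degradation. It had 4.97 and 5.20 CPM in the control libraries and 20.1 and 23.5 CPM in the CELF2 ASO libraries, a rise of 4.29-fold (log2 fold change 2.10, SE 0.13, adjusted p = 2.44e-05). BBC3 (ENSG00000105327, chromosome 19, 47220822 to 47232766, minus strand) encodes PUMA, a p53 target that binds all the anti-apoptotic members named here. It had 2.25 and 2.34 CPM in the control libraries and 9.92 and 8.54 CPM in the CELF2 ASO libraries, a rise of 4.02-fold (log2 fold change 2.01, SE 0.17, adjusted p = 6.97e-05). For both genes each CELF2 ASO library was above each control library. BBC3 rests on 63 and 55 counts in the control libraries, and PMAIP1 on 139 and 122.

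BCL2L11 (ENSG00000153094, chromosome 2, 111119378 to 111168447, plus strand) encodes BIM, the main BH3-only protein of lymphocytes. It had 52.3 and 53.2 CPM in the control libraries and 44.5 and 47.0 CPM in the CELF2 ASO libraries, lower in each, with a log2 fold change of -0.21 and a 95% interval of -0.39 to -0.02 before adjustment (adjusted p = 0.06). It passed with RLE scaling (adjusted p = 0.0426) and with the older edgeR fit (0.0496). Its log2 fold change was -0.16 without CELF2 ASO replicate 1 and -0.26 without replicate 2. The long noncoding gene MIR4435-2HG on the opposite strand shares 10.9% of the exon bases of BCL2L11. That gene fell, with 1260 and 1035 counts in the control libraries against 848 and 684 in the CELF2 ASO libraries (log2 fold change -0.59, adjusted p = 0.000943), and with no stated strand setting its reads cannot be told apart from those of BCL2L11 where they overlap.

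BMF (ENSG00000104081, chromosome 15, 40087890 to 40108892, minus strand) encodes a BH3-only protein held on the cytoskeleton through the dynein light chain DYNLL2. It had 16.6 and 17.5 CPM in the control libraries and 19.7 and 16.7 CPM in the CELF2 ASO libraries, so that the groups overlapped. The log2 fold change was 0.09 with a 95% interval of -0.18 to 0.37 (adjusted p = 0.529), which in folds spans 0.88 to 1.3. The groups did not overlap for the other 9 genes, and over all genes tested they did not overlap for 79.6%.

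**Figure D2:**
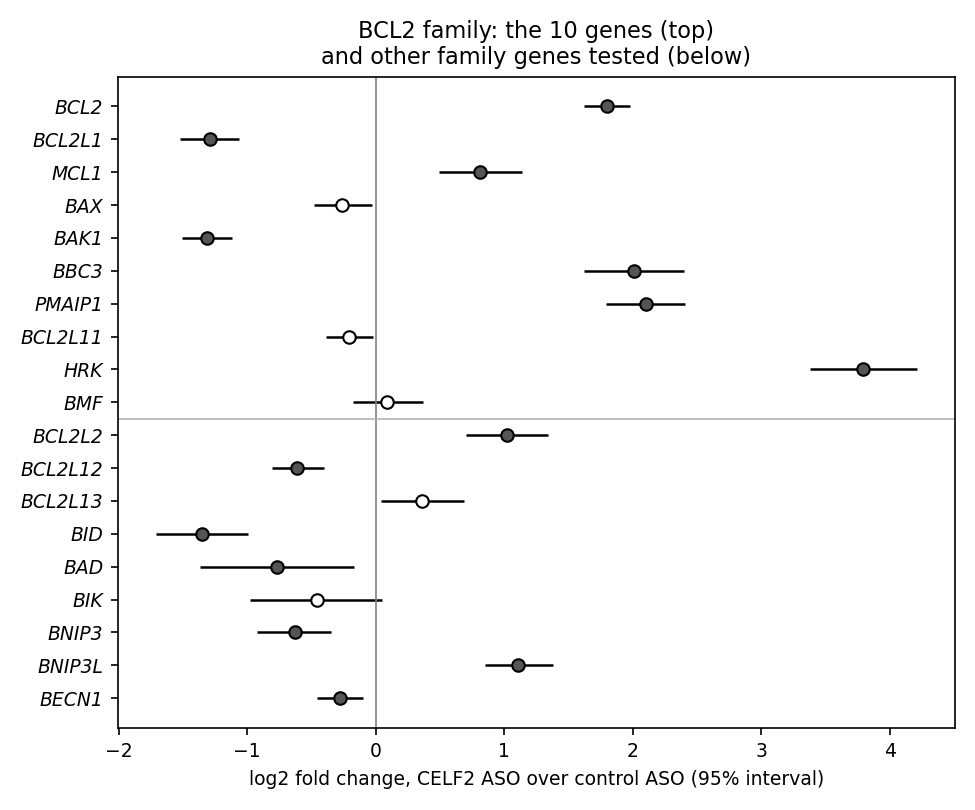
Log2 fold change of each gene with its 95% interval from the edgeR fit, before adjustment over genes; filled points passed at an adjusted p under 0.05 and open points did not. HRK, at 3.79, lies furthest to the right, and BID, BAK1 and BCL2L1 lie furthest to the left.

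Levels can be compared between genes only per length, here as RPKM (CPM per kilobase of all annotated exons). In the control libraries MCL1 had the highest level (44.4 ± 1.49 RPKM, SD, n = 2), followed by BAK1 (29.7 ± 0.756), BCL2L1 (22.5 ± 0.331), BAX (12.1 ± 0.066), BCL2L11 (7.93 ± 0.0945), BCL2 (6.95 ± 0.371), BMF (3.13 ± 0.116), PMAIP1 (2.27 ± 0.0738), BBC3 (0.722 ± 0.0207) and HRK (0.211 ± 0.0182). By that length, each neighbour in the order was separate in both libraries. In the CELF2 ASO libraries MCL1 stayed first (77.9 ± 16.9 RPKM, SD, n = 2), and BCL2 came second (24.2 ± 0.0556), above BAK1 (11.9 ± 0.491). BAX (10.1 ± 0.735), PMAIP1 (9.75 ± 1.06) and BCL2L1 (9.23 ± 1.06) followed, then BCL2L11 (6.87 ± 0.266), BMF (3.33 ± 0.389), HRK (2.92 ± 0.408) and BBC3 (2.90 ± 0.306). There BAX, PMAIP1 and BCL2L1 overlapped with one another, as did BMF, HRK and BBC3, so their order is not resolved.

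Both orders also depend on the length used. Per kilobase of the longest transcript, BCL2 lay above BCL2L11 (10.1 RPKM) in the control libraries, and BAX was at 23.0 and BBC3 at 1.25 RPKM. With the CELF2 ASO, that length put BAX (19.3 RPKM) above BAK1 (11.9), and BBC3 (5.02) above BMF (3.87) and HRK (3.46), and BCL2 was at 38.1 RPKM. The means of BCL2L1 (11.7) and PMAIP1 (11.2) changed order, but their libraries overlapped by that length too, so this order is not resolved.

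Within a library, the share of each gene in the summed RPKM of its role class does not depend on scaling between libraries. In the control libraries BCL2 made up 9.18% and 9.62% of the 3 anti-apoptotic genes, against 24.2% and 19.7% in the CELF2 ASO libraries. BCL2L1 made up 31.3% and 29.8%, then 9.96% and 6.92%, and MCL1 59.5% and 60.6%, then 65.9% and 73.4%. The CELF2 ASO libraries thus held more BCL2 than BCL2L1 per length, the reverse of the control libraries.

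In the control libraries BAX made up 29.2% and 28.6% of the 2 effectors, against 43.9% and 47.9% in the CELF2 ASO libraries. Of the 5 BH3-only genes, BCL2L11 held 56.0% and 55.2% in the control libraries, against 26.1% and 27.2% in the CELF2 ASO libraries, where PMAIP1 was the most abundant at 35.1% and 40.5% (15.8% and 16.1% in the controls). HRK went from 1.41% and 1.55% to 12.5% and 10.1%, and BBC3 from 5.04% and 5.09% to 12.2% and 10.4%. These shares depend on the lengths used: with the longest transcript in place of all exons, BAX made up on average 43.7% of the effectors in the control libraries and 61.7% of them with the CELF2 ASO, so that it then exceeded BAK1.

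**Figure D3:**
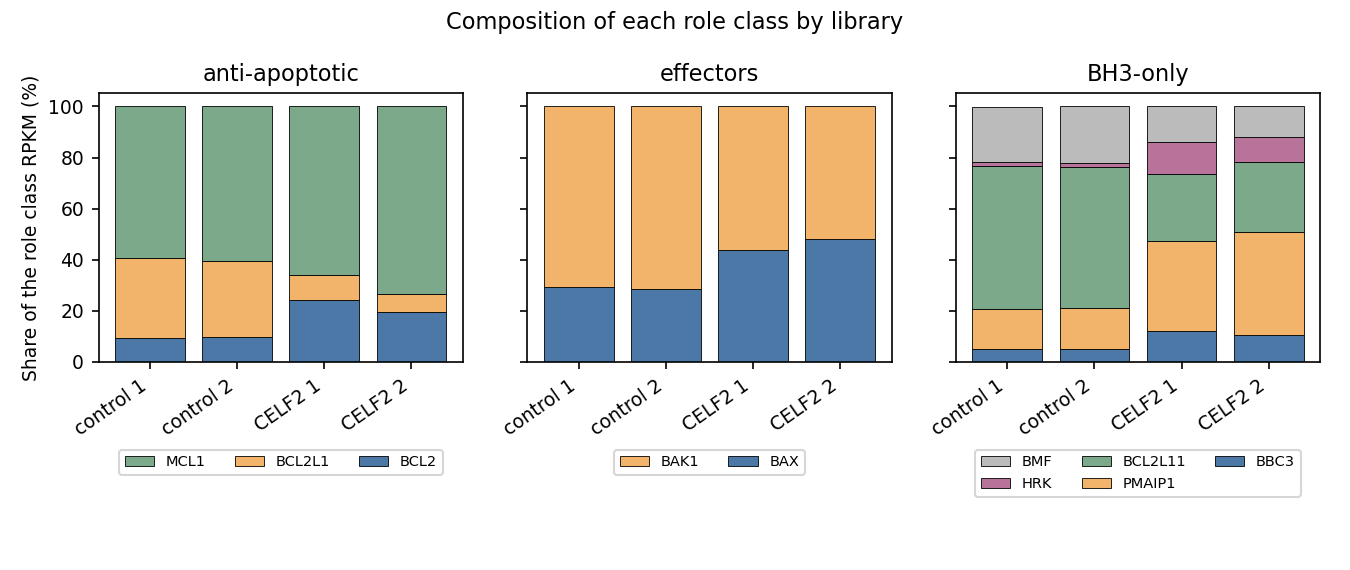
Share of each gene in the summed RPKM of its role class, in percent, for each of the 4 libraries; each bar adds to the whole class. The BCL2L1 segment shrinks from 31.3% and 29.8% to 9.96% and 6.92%, while the PMAIP1 segment widens from 15.8% and 16.1% to 35.1% and 40.5%.

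Summed over each class, the anti-apoptotic genes had 72.8 and 74.9 RPKM in the control and 100 and 122 RPKM in the CELF2 ASO libraries. The effectors had 41.1 and 42.3 RPKM, then 21.9 and 22.2 RPKM, and the BH3-only genes 14.0 and 14.5 RPKM, then 25.6 and 25.9 RPKM. The ratio of the BH3-only to the anti-apoptotic sum was 0.193 in each control library and 0.256 and 0.212 in CELF2 ASO replicates 1 and 2. These sums and the ratio cover the 10 chosen genes alone and depend on that choice. Left out are the BH3-only genes BID, BAD and BIK, with mean control levels of 9.51, 7.82 and 6.67 CPM. With the CELF2 ASO these were lower, at 3.74, 4.53 and 4.79 CPM, although BIK was not called. The anti-apoptotic BCL2L2, also left out, was higher (5.18 to 10.5 CPM). Sums of RNA weigh each gene equally per transcript and say nothing of protein levels or of cell death, which were not measured.

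Of 14 other family and BH3-containing genes, 9 were tested, with 2 higher, 5 lower and a median log2 fold change of -0.46. Among all genes tested, 27.6% were higher and 28.0% lower, with a median of 0.04. BCL2L2, which encodes the anti-apoptotic BCL-w, had 5.47 and 4.90 CPM in the control and 10.7 and 10.3 CPM in the CELF2 ASO libraries and rose 2.03-fold (adjusted p = 0.000642); it shares exons with the readthrough gene BCL2L2-PABPN1, so its counts are uncertain. BNIP3L, a mitophagy receptor, rose 2.16-fold (adjusted p = 0.000169), while its relative BNIP3 fell 1.55-fold (adjusted p = 0.00364).

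BID, the BH3-only protein that death-receptor caspases cleave, had 9.18 and 9.84 CPM in the control and 3.43 and 4.06 CPM in the CELF2 ASO libraries and fell 2.55-fold (adjusted p = 0.000301). BCL2L12 fell 1.52-fold (adjusted p = 0.000834) and the autophagy gene BECN1 1.21-fold (adjusted p = 0.0177), but BECN1 did not pass under library totals alone (adjusted p = 0.114) or without control ASO replicate 1 (0.144) or replicate 2 (0.175). BAD, a BH3-only protein controlled by phosphorylation, fell 1.71-fold (adjusted p = 0.035), but its control libraries were at 5.93 and 9.72 CPM and the call was lost without control ASO replicate 2 (adjusted p = 0.235). BIK (log2 fold change -0.46, adjusted p = 0.108) and BCL2L13 (0.36, adjusted p = 0.0589) did not pass. The other 5 were too low to test: BCL2A1 had 0 counts in every library, BCL2L10 had 0 to 4, BCL2L14 had 5 to 12, BCL2L15 had 4 to 8 and BOK had 5 to 15.

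Of 13 genes that act after the mitochondrial membrane opens or form its channels, 3 rose and 7 fell, and their median log2 fold change was -0.25. Shares over all genes tested were 27.6% higher and 28.0% lower, with a median of 0.04. XIAP, an inhibitor of caspases, had 41.0 and 41.2 CPM in the control and 104 and 115 CPM in the CELF2 ASO libraries and rose 2.66-fold (adjusted p = 1.79e-05). The 3 VDAC genes encode the outer membrane channel that in the case of VDAC2 binds BAK. VDAC1 fell 2.15-fold, VDAC2 2.01-fold and VDAC3 2.33-fold, with adjusted p-values of 6.57e-05, 5.22e-05 and 2.78e-05.

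Of 14 transcriptional regulators known to act on family genes, 6 rose and 3 fell, and their median log2 fold change was 0.17. Beside them, 27.6% of all genes tested rose and 28.0% fell, with a median of 0.04. DDIT3, which encodes CHOP, had 2.04 and 2.64 CPM in the control and 49.4 and 69.4 CPM in the CELF2 ASO libraries, a rise of 25.5-fold (adjusted p = 1.03e-05). The related stress factor ATF3 rose 10.5-fold (adjusted p = 9.36e-06), from 5.11 and 5.24 to 46.6 and 61.8 CPM. JUN, a component of AP-1 that is known to act on HRK and BCL2L11, had 17.6 and 18.1 CPM in the control and 34.0 and 35.7 CPM in the CELF2 ASO libraries and rose 1.95-fold (adjusted p = 0.000129). ATF4 was among the 6 that rose, by 4.79-fold (adjusted p = 5.48e-06).

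Of 10 partners and stability regulators of family proteins, 2 rose and 5 fell, none of them by 2-fold, and their median log2 fold change was -0.32. For all genes tested, 27.6% rose and 28.0% fell, with a median of 0.04. The dynein light chains that tether BIM and BMF moved in opposite directions. DYNLL1, which binds BIM, fell 1.68-fold (adjusted p = 0.000135), from 179 and 185 to 106 and 111 CPM. DYNLL2 rose 1.62-fold (adjusted p = 0.00101), from 45.8 and 47.5 to 68.7 and 82.5 CPM. VCP, an unfoldase of protein degradation, fell 1.76-fold (adjusted p = 0.000149) and the chaperone gene BAG6 1.53-fold (adjusted p = 0.000369).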

How the data were processed

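RNA sequencing counts of 4 libraries were analysed, 2 with a CELF2 LNA ASO and 2 with a control LNA ASO. The deposited table holds unnormalized counts, 1 row per gene. The submitters' processing notes name the genome GRCh38 and the tools STAR 2.7.11b, featureCounts 2.0.8 (with Subread), Salmon 1.10.0 and bcl2fastq. The annotation, the strand setting and the treatment of multi-mapping reads were not given in the sources used here. The labels name both poly(A) selection and removal of ribosomal RNA.

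Of 79029 rows, 97 name no gene and held 1 to 3 counts in each library (at most 1.03e-05% of it); they were left out. Symbols came from a gene name table, and positions, overlaps and lengths from GENCODE on GRCh38. In R 4.3.3, edgeR 4.0.16 kept genes by filterByExpr (minimum count 10, minimum total 15), scaled libraries by TMM and tested the groups two-sided by robust quasi-likelihood with no covariate, with Benjamini-Hochberg adjustment over 19511 genes. SEs are the absolute log2 fold change over the square root of F, and 95% intervals use the fit's degrees of freedom. The replicate pairs differed beyond sampling noise (chi-square per degree of freedom 3.85 for control and 22.5 for CELF2 ASO). The fit was also run on simulated counts with the same spread in both groups and few changed genes. That run does not cover the unequal spread or the many changes of these data.

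Alternatives were library totals, RLE, no filter, a filter of 1 CPM in 2 libraries, DESeq2 1.42.0, limma 3.58.1 (voom, with and without group weights), a replicate block, summed controls and leaving out each library; the older edgeR fit without adjusted deviances, and RPKM by the longest transcript, were added after seeing the data. Named genes were CELF2, the 10 members, all other listed family genes, up to 4 genes of each further list by adjusted p, and genes overlapping a member; list members with few counts were given by counts. Members and lists were chosen with earlier results of these data known.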

Additional observations from a re-analysis of the deposited data

How the results depend on the processing

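Of the 10 genes, BCL2, MCL1, BBC3, PMAIP1, HRK, BCL2L1 and BAK1 kept their direction under all 14 alternatives. They passed the threshold in each alternative that kept both libraries of each group. Their log2 fold changes ranged from 1.72 to 1.91, 0.55 to 1.03, 1.90 to 2.13, 1.97 to 2.22, 3.65 to 3.91, -1.41 to -1.17 and -1.37 to -1.20, in that order. Among those alternatives, BAX passed with RLE scaling and with no filter, BCL2L11 with RLE scaling and the older edgeR fit, and BMF in none. BMF turned to -0.02 without CELF2 ASO replicate 1 (adjusted p = 0.867) and was 0.19 without CELF2 ASO replicate 2. The count of members lower was 2, against 4 with RLE scaling and 2 to 4 when each library was left out in turn. Members called numbered 7 to 9. With library totals alone the median of all genes shifted by 0.12 on the log2 scale.

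Over all genes, those higher numbered 5388, and 3564 to 6214 when each library was left out in turn, the lowest without control ASO replicate 1. A fit with 1 library in a group takes its spread from the other pair alone. With the label's number as a replicate block, 10790 genes were called against 10848, and 7 of the 10 members again. Same-numbered libraries deviated from their group means with a correlation of 0.03 over genes, and no label says that a number marks a shared batch, so they share only a number.

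Of the other family genes, BAD was also lost with library totals alone (adjusted p = 0.0744), group weights (0.147) and without CELF2 ASO replicate 2 (0.058), and BECN1 with the control libraries summed (0.132). BCL2L13 passed with library totals alone (0.0176), the 1 CPM filter (0.0383) and group weights (0.0459). Without CELF2 ASO replicate 1 the log2 fold change was 0.55 for BCL2L13 and -0.77 for BIK. The cause was not tested. With the longest transcript as length, BCL2 averaged 12.3% of the anti-apoptotic sum in control libraries and 28.2% with the CELF2 ASO. Control counts of 36 to 63 limit the precision of HRK and BBC3.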
